A study of Mus musculus with 6 samples.

Results

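Microglia were picked out of 6 single-nucleus RNA libraries of mouse hippocampus by their RNA alone. A nucleus was taken when it had at least 500 detected genes, at most 5% mitochondrial UMIs (unique molecular identifiers, each counting 1 captured RNA molecule), and at least 3 UMIs in total of Csf1r, Inpp5d, Siglech, Selplg, Ikzf1 and Ctss. It could hold at most 2 UMIs of the neuronal genes Slc17a7, Snap25, Gad1 and Gad2, at most 1 of the myelin genes Mog, Mag and Mobp, and at most 1 of the astrocyte genes Gja1 and Aqp4. The rule found 1298 microglia among the 27766 nuclei that passed the quality limits, out of 30323 barcodes. These 15 genes chose the nuclei, so their levels are given below as a description, with no p-value. They stayed in the fits, so counts and shares over all genes tested can include them.

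Each library pooled the hippocampi (dentate gyrus in the tissue label) of 5 C57BL/6J mice, all male and 12 weeks old. They had received vehicle (Veh) or 30 mg/kg of CI-994, an inhibitor of class I histone deacetylases (HDACi), 1 h before they were placed in a chamber, and were killed 1 h after the exposure. In contextual fear conditioning (CFC) the exposure held 2 foot shocks of 0.2 mA, and in the Context groups it held none. There were 2 Veh-CFC libraries, 2 HDACi-CFC libraries, 1 library labelled Veh-Context and 1 HDACi-Context library. The library labelled Veh-Context carries vehicle in its title and treatment label but HDACi in its description, and its values are read as vehicle only on its title. The drug was given to the whole animal, so microglia and every other cell were exposed together. Nothing in the labels describes how replicate pools were drawn, so p-values measure the spread between these pools.

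Microglia are the resident macrophages of the brain parenchyma. They depend on signalling through the CSF1 receptor and on TGF-beta, are held in their state by lineage transcription factors such as PU.1 (Spi1), Mef2c and Sall1, and survey the tissue with purinergic and chemokine receptors. They also engulf debris and synapses with the help of complement and lipid receptors. Class I histone deacetylases remove acetyl groups from histones as catalytic subunits of corepressor complexes, and blocking them raises acetylation across the genome.

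The chosen nuclei carried the microglial programme well beyond the 6 genes that selected them. The selecting genes summed to 7487 to 11423 CPM (counts per 1000000, UMIs of a gene per 1000000 UMIs of the summed microglia) against 32.5 to 51.3 CPM in all other nuclei. These sums, the medians in this paragraph and the sums of marker lists further on are plain CPM, not scaled by TMM (the scaling described with the first comparison). Of 15 microglial marker genes outside the rule, 14 were detected in every library, and together they made 14756 to 19439 CPM. The complement component C1qa had a median of 2549 CPM over the 6 libraries against 15.0 CPM in the other nuclei, the fractalkine receptor Cx3cr1 stood at 1435 against 22.4 CPM, the purinergic receptor P2ry12 at 1245 against 36.6 CPM, and Tmem119 at 358 against 1.93 CPM. Among genes with at least 300 UMIs in the members, the 10 with the highest ratio of these medians were Ikzf1, Arhgap45, Inpp5d, Csf1r, Selplg, Slco2b1, Siglech, Runx1, Ly86 and Bin2. Of these, Arhgap45, Slco2b1, Runx1, Ly86 and Bin2 were no part of the rule. At least 1 UMI of a small set of homeostatic genes, P2ry12, Cx3cr1 and Tmem119 among them, was found in 98.3% to 100% of members in each library. Itgam and Irf8 were listed at 0 UMIs in all nuclei of all 6 libraries, and nothing is drawn from them.

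Few nuclei lay near the limit of the rule. With the exclusions met, 0 to 3 nuclei per library had exactly 3 UMIs of the selecting genes and 1 to 9 had exactly 2 and were left out, while the median member had 12 to 21. In 33 to 64 nuclei per library the selecting genes were high enough but an excluded gene was over its limit. Scrublet called 0 to 4 members per library as doublets. No microglial barcode was shared between libraries. Among all kept nuclei only 1 to 11 barcodes per pair were shared, too few for that absence to say anything about microglia. The nuclei were shallow, with a median of 1364 to 1950 UMIs against 5737 to 7290 in the other nuclei.

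By the rule above, the share of microglia among nuclei differed between the CFC groups by less than the spread between libraries. It was 4.77% and 5.20% in the Veh-CFC libraries and 5.08% and 4.88% in the HDACi-CFC libraries, that is 4.98% ± 0.304 (SD, n = 2) and 4.98% ± 0.136 (SD, n = 2). In Context it was 4.44% (95% exact binomial interval 3.89% to 5.05%) in the library labelled Veh-Context and 3.91% (3.41% to 4.46%) in HDACi-Context, intervals that overlap and cover counting error only. The smallest two-sided p that an exact permutation of 2 libraries against 2 can give is 0.333, so no test was made. Microglia of the treated pools held fewer distinct genes. The median was 1181 and 1336 genes per nucleus with vehicle in CFC and 925 and 1124 with HDACi, with no overlap, and 1211 and 1093 in the library labelled Veh-Context and its HDACi counterpart. Median UMIs per nucleus were 1678 and 1950 with vehicle in CFC and 1364 and 1727 with HDACi, groups that overlapped.

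The first comparison asked which genes of microglia differed between HDACi-CFC and Veh-CFC. UMIs were summed over the microglia of each library (283546 to 497395 UMIs per CFC library) and tested with edgeR's quasi-likelihood test, with p-values adjusted over all genes tested by the Benjamini-Hochberg method. Calls were made where that adjusted p was below 0.05. Of 6974 genes tested, 1216 (17.4%) rose and 1024 (14.7%) fell with the inhibitor, 32.1% together. The genes that rose were led in significance by Ubash3b and Jmjd1c, named after their values were seen. Jmjd1c, a member of a family of histone demethylases, stood at 880 and 932 CPM with vehicle in CFC and 2820 and 2913 CPM with HDACi, a log2 fold change of 1.66 (SE 0.11, adjusted p = 7.2e-08). Ubash3b, a phosphatase that acts on immune receptor kinases, stood at 660 and 539 CPM and then at 2199 and 2315 CPM, a log2 fold change of 1.92 (SE 0.12). In both genes every treated library lay above every vehicle library by more than the spread within either group.

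These fold changes, and the CPM of single genes printed with them, are relative to a scaling (TMM) that sets the typical gene to no change. Scaled to library totals instead, the median over all tested genes shifted from -0.01 to -0.26, and 793 genes rose and 1645 fell. Counted per nucleus, the median was -0.46, with 438 higher and 2019 lower. No gene changed from one called direction to the other, and all 793 and all 438 genes were among the 1216. DESeq2 called 465 genes higher and 132 lower, every one of them also called by edgeR in the same direction, and left 1623 genes without an adjusted p. Without Veh-CFC replicate 2 the counts were 670 and 403, without Veh-CFC replicate 1 they were 928 and 576, and without HDACi-CFC replicate 2 they were 1013 and 622. The neuronal marker list summed to 2263 and 1824 CPM in Veh-CFC microglia and 4084 and 2548 CPM in HDACi-CFC microglia. Of its 10 genes 7 rose and 0 fell, beside 17.4% and 14.7% of all genes tested. Kcnip4, a potassium channel subunit named after its values were seen, had 469 and 303 CPM with vehicle in CFC and 1531 and 543 CPM with HDACi (1.42, SE 0.32, or 0.57 without HDACi-CFC replicate 1), and was at 0.49 (adjusted p = 0.118) among microglia with 0 UMIs of the 9 excluded genes. In Context the neuronal list went from 1704 CPM to 1358 CPM. All other nuclei held 21344 to 27718 CPM of it, and the part of neuronal RNA in the CFC result was not tested.

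**Figure D1:**
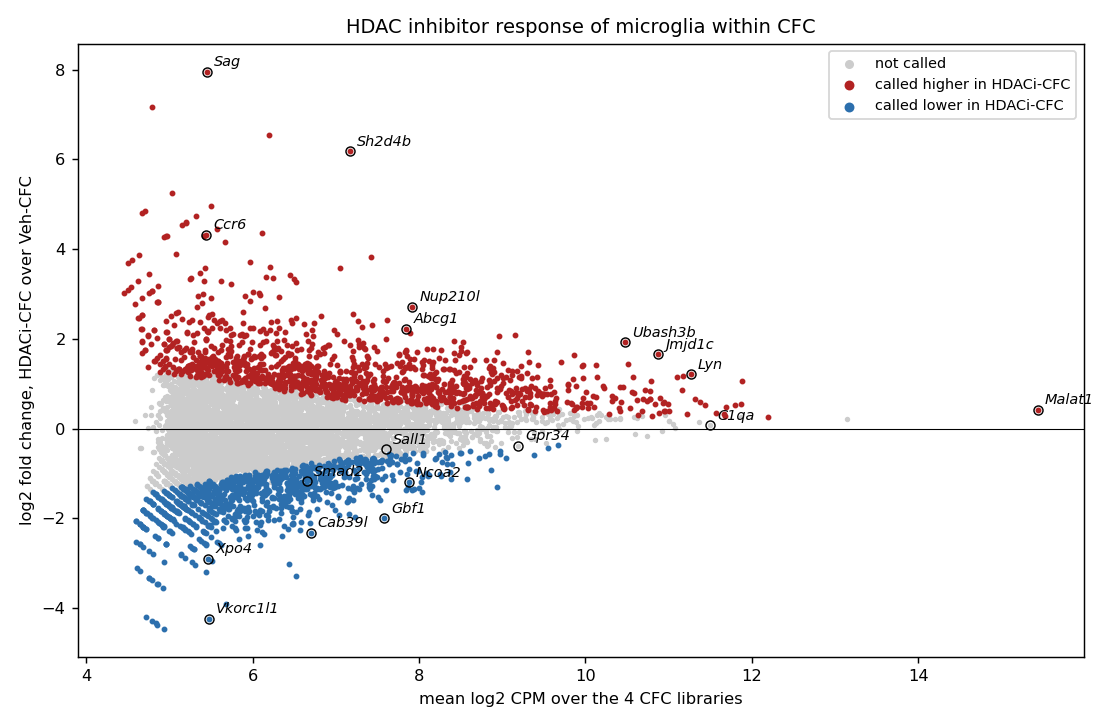
Each point is 1 gene in summed microglia, with its mean level over the 4 CFC libraries (log2 CPM) on the x axis and its log2 fold change, HDACi-CFC over Veh-CFC, on the y axis, the 15 genes of the rule left out. Called genes lie on both sides of 0, with Jmjd1c at 1.66 and Vkorc1l1 at -4.24, while C1qa lies near the 0 line at 0.08.

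How a gene's level in microglia compared with the rest of the tissue went with its call. Levels were compared in the library labelled Veh-Context, which is outside this contrast, a choice made after seeing the data. Of 1183 tested genes at a level at least 4 times that of the other nuclei there, 477 (40.3%) rose and 42 (3.55%) fell, and their median log2 fold change was 0.46. Of 5006 genes between that and 0.5 of the level in the other nuclei, 497 (9.93%) rose and 945 (18.9%) fell, with a median of -0.24. Of 785 genes at or under 0.5 of that level, 242 (30.8%) rose and 37 (4.71%) fell, with a median of 0.63. With medians over all 6 libraries, which hold the treated ones and so let a rise move a gene up a class, 43.2%, 8.50% and 26.4% of the 3 classes rose. Long noncoding RNA genes made up 145 (11.9%) of the 1215 annotated genes that rose, 24 (2.34%) of those that fell and 4.10% of those not called. The median genomic span of a gene was 56.6 kb among those that rose, 47.5 kb among those that fell and 32.5 kb among those not called. Over the 4 CFC libraries genes that rose had the higher mean level, with a median log2 CPM of 7.04 against 5.94 and 6.03. That mean holds the treated libraries, so a rise lifts it and a fall lowers it. With vehicle in CFC alone the medians were 81.8 CPM for those that rose, 78.1 CPM for those that fell and 60.9 CPM for those not called.

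Most of the largest rises came from genes that were almost silent in vehicle microglia. The level limit was set on the mean over all 4 CFC libraries. A gene near 0 with vehicle could pass it through the treated libraries alone, so the ranking favours such genes. Sag, which encodes the arrestin of photoreceptors, had 0 and 0 UMIs with vehicle in CFC and 21 and 32 UMIs with HDACi, and against a floor of 3 UMIs per library it was at least 11.1-fold higher. Sh2d4b, an SH2 domain gene, had 3 and 0 UMIs and then 53 and 133, a pooled ratio of 81.8 (95% counting interval 27.6 to 400.4). The chemokine receptor gene Ccr6 went from 1 and 2 UMIs to 16 and 34, a ratio of 22.0 (7.11 to 110.3). Plet1, Lrrc63, Morn3 and Crtam were alike, with 2 or 3 UMIs over both vehicle libraries and 37 to 56 over both treated ones. Plet1os is annotated antisense to Plet1 and how strand was used in counting is not stated, so reads of the pair may not be separable. It rose by 3.59 on the log2 scale (SE 0.41). Kif9, a kinesin gene, had 8 and 9 UMIs with vehicle in CFC and 82 and 69 with HDACi, a log2 fold change of 3.58 (SE 0.37). All of these were among the 10 highest log2 fold changes of named genes whose log2 CPM averaged 5 or more, with treated libraries that all lay above the vehicle libraries.

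The largest falls were in genes of moderate level with vehicle, which the same limit on the mean level favours. Vkorc1l1, of the vitamin K cycle, had 60.6 and 72.2 CPM with vehicle in CFC and 0 and 5.32 CPM with HDACi, the last from 2 UMIs, and its pooled UMIs were 20.8-fold lower (95% counting interval 5.50 to 176). Tesk2, a protein kinase gene, had 73.3 and 82.2 CPM and then 4.17 and 5.32 CPM, pooled UMIs 16.2-fold lower (5.29 to 80.4). Cep192, of the centrosome, fell from 121 and 144 CPM to 16.7 and 15.96 CPM (log2 fold change -3.02, SE 0.39). Smarcb1, a core subunit of the SWI/SNF chromatin remodeller, fell from 63.7 and 50.1 CPM to 8.34 and 5.32 CPM (-3.03, SE 0.56). Thap2, Styx, Zfp846, Xpo4 and Ide were also among the 10 lowest, at -3.20 to -2.89. Styx and Ide lost the call without Veh-CFC replicate 2, at adjusted p = 0.0724 and 0.0926 in edgeR.

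Lineage transcription factors of macrophages rose more often than they fell. Of 18 tested genes of this list 10 rose (55.6%, beside 17.4% of all genes) and 0 fell, with a median log2 fold change of 0.50. With library totals 7 rose and 3 fell (median 0.25), and per nucleus 2 rose and 2 fell (median 0.06). Every list is to be read beside all 6974 tested genes, of which 17.4% rose and 14.7% fell. With library totals 793 of all tested genes rose and 1645 fell, and per nucleus 438 rose and 2019 fell. Maf, which helps maintain macrophage identity, had 548 and 547 CPM with vehicle in CFC and 1527 and 1413 CPM with HDACi (log2 fold change 1.42, SE 0.12). Both treated libraries lay far above both vehicle libraries. Mef2c, tied to microglial restraint, rose from 1412 and 1291 CPM to 1986 and 2131 CPM (0.61, SE 0.11), a call lost per nucleus. Cebpa (1.12) and Tal1 (0.95) rose as well. Cebpa lost the call without Veh-CFC replicate 1 or HDACi-CFC replicate 1 (adjusted p = 0.235 and 0.164), and Tal1 without Veh-CFC replicate 1 (adjusted p = 0.0997). Spi1, which encodes PU.1, did not pass the test, at 255 and 345 CPM against 338 and 317 CPM. Sall1, a factor that sets microglia apart from other macrophages, stood at 207 and 223 CPM with vehicle in CFC and 175 and 144 CPM with HDACi (log2 fold change -0.45, adjusted p = 0.117), groups that did not overlap but did not pass.

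Genes of the homeostatic signature showed small differences whose typical direction changed with the scaling. Of 25 tested members 8 rose (32.0%) and 0 fell, with a median of 0.27 that became 0.01 with library totals and -0.19 per nucleus, under which 2 rose and 2 fell, and 1 rose and 2 fell. Bin1, a membrane-curving adaptor, rose from 392 and 363 CPM to 851 and 796 CPM (1.13, SE 0.14). Entpd1, the ectonucleotidase CD39, rose from 835 and 814 CPM to 1372 and 1344 CPM (0.72, SE 0.12). P2ry13 rose by 0.57, a call lost with library totals and without Veh-CFC replicate 1, Veh-CFC replicate 2 or HDACi-CFC replicate 1 (adjusted p = 0.21, 0.152 and 0.114). Adgrg1 rose by 1.03, a call lost with library totals and without Veh-CFC replicate 1 or HDACi-CFC replicate 2 (adjusted p = 0.142 and 0.0976).

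The receptors and surface genes most used to recognise microglia did not pass the test. P2ry12 had 1269 and 1231 CPM with vehicle in CFC and 1614 and 1357 CPM with HDACi (log2 fold change 0.25, SE 0.12, adjusted p = 0.121). Cx3cr1 had 1444 and 1430 CPM and then 1715 and 1684 CPM (0.24, SE 0.11, adjusted p = 0.0907). Tmem119 had 347 and 429 CPM and then 446 and 436 CPM (0.17, adjusted p = 0.448). None of these passed, and with library totals or per nucleus all 3 lay below 0, at -0.01 to -0.29. Gpr34, a receptor for lysophosphatidylserine, had 606 and 688 CPM with vehicle in CFC and 530 and 474 CPM with HDACi (-0.38, adjusted p = 0.0611). Among the genes of the rule, Siglech had 854 and 992 CPM with vehicle in CFC and 1815 and 2198 CPM with HDACi, and Ctss 1798 and 1943 CPM and then 2541 and 2666 CPM. Csf1r had 1868 and 1726 CPM and then 2040 and 1977 CPM. Of the 6 selecting genes Siglech thus had the widest gap between the groups.

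**Figure D2:**
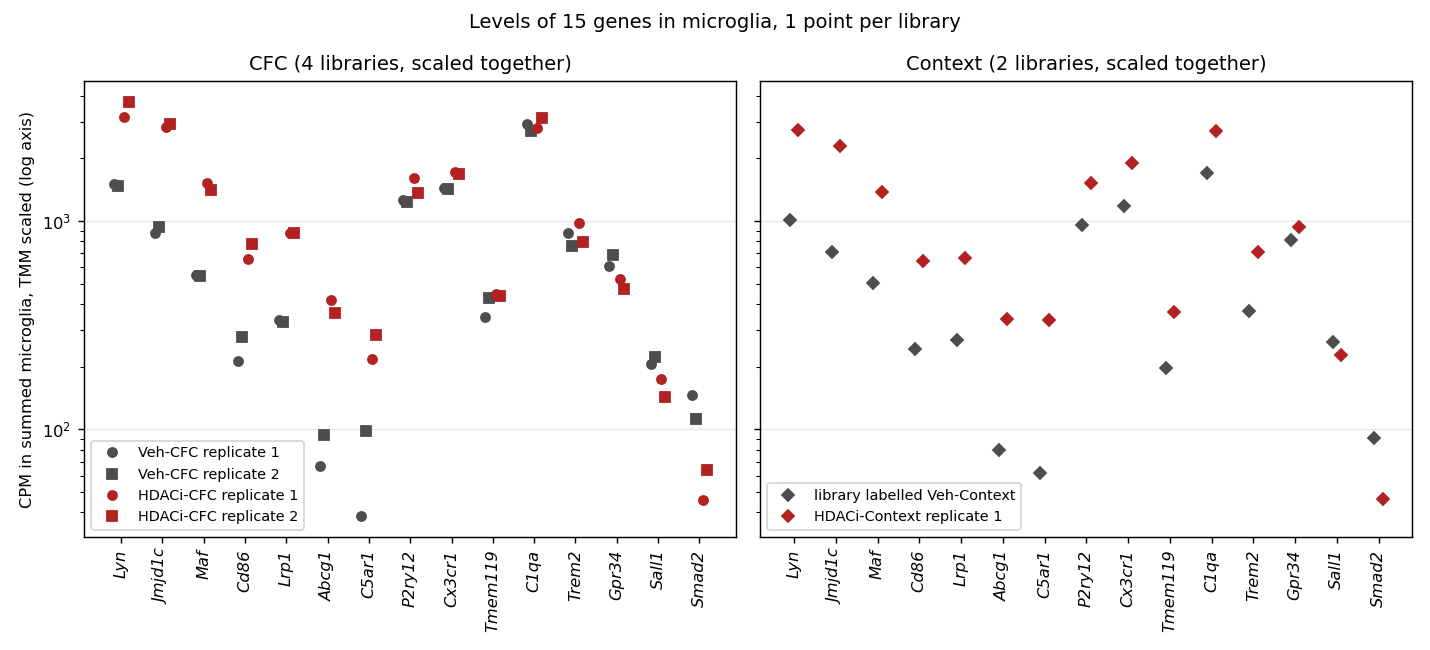
CPM of 15 genes in summed microglia on a log axis, 1 point per library, vehicle in grey and HDACi in red, CFC on the left and Context on the right, each panel scaled on its own. Lyn, Jmjd1c and Abcg1 are higher in every treated library than in the vehicle libraries of the same panel, with Abcg1 at 417 and 362 CPM against 66.9 and 94.2 CPM in CFC, while C1qa overlaps between the CFC groups.

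Kinases and adaptors below immune receptors held the highest share of rises among the lists with at least 10 tested genes. Of 29 tested genes 19 rose (65.5%) and 1 fell, with a median of 0.73 that stayed positive under library totals (0.48, 16 rose) and per nucleus (0.29, 6 rose). Lyn, a Src family kinase that phosphorylates receptor motifs, lies on chromosome 4 at chr4:3678115-3813122 (GRCm38). It had 1501 and 1466 CPM with vehicle in CFC and 3145 and 3738 CPM with HDACi, a log2 fold change of 1.22 (SE 0.11, adjusted p = 1.5e-06). Cd180, a relative of the Toll-like receptors, rose from 277 and 194 CPM to 768 and 753 CPM (1.71, SE 0.18). Pik3ap1, an adaptor to PI3 kinase, rose from 223 and 215 CPM to 555 and 583 CPM (1.38, SE 0.17). Ptpn6, the inhibitory phosphatase SHP-1, rose from 63.7 and 44.1 CPM to 138 and 152 CPM (1.47, SE 0.30). In each of the 4 the treated libraries lay above both vehicle libraries. Skap2 was the 1 member that fell.

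Receptors for complement fragments rose while the complement components themselves did not pass. Of 22 tested genes of phagocytosis and complement 9 rose (40.9%) and 0 fell, with a median of 0.33. With library totals 3 rose and 1 fell (median 0.08), and per nucleus 2 rose and 0 fell (median -0.13). C5ar1, the receptor for C5a, had 38.2 and 98.2 CPM with vehicle in CFC and 217 and 285 CPM with HDACi (1.79, SE 0.30). Lrp1, a scavenger receptor for lipoproteins, had 335 and 327 CPM and then 880 and 873 CPM (1.41, SE 0.14). C3ar1, the receptor for C3a, rose by 1.11, a call lost without Veh-CFC replicate 2 (adjusted p = 0.092), and Gas6, a bridging ligand of TAM receptors, by 0.79. Gas6 lost the call without Veh-CFC replicate 1, Veh-CFC replicate 2 or HDACi-CFC replicate 2 (adjusted p = 0.125, 0.0927 and 0.432). Mertk, the TAM receptor itself, had 2215 and 2029 CPM and then 2536 and 2764 CPM (0.32, adjusted p = 0.0227), a call lost with library totals and, at adjusted p = 0.247, without Veh-CFC replicate 2. Per nucleus Mertk was at -0.12. C1qa had 2917 and 2707 CPM and then 2803 and 3116 CPM, C1qb 1967 and 1975 CPM and then 1777 and 2014 CPM, and C1qc 2222 and 2087 CPM and then 2065 and 2256 CPM. Their log2 fold changes were 0.08, -0.05 and 0.01 with SEs of 0.10 to 0.11, and the groups overlapped in all 3. Trem2 (0.11) and its adaptor Tyrobp (-0.11) did not pass either.

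Among chemokine, purinergic and channel genes 5 of 16 rose (31.3%) and 1, Stim1, fell, with a median of 0.24 that was -0.01 with library totals and -0.21 per nucleus, under each of which 2 rose and 1 fell. Trpm2, a calcium channel opened by oxidative stress, had 121 and 118 CPM with vehicle in CFC and 392 and 386 CPM with HDACi (1.70, SE 0.20). The spread within each group was small beside that gap. Hvcn1, a proton channel, and Kcnk6, a potassium channel, rose by 1.01 and 0.75. Hvcn1 lost the call without Veh-CFC replicate 1, Veh-CFC replicate 2 or HDACi-CFC replicate 2 (adjusted p = 0.15, 0.122 and 0.106), and Kcnk6 without Veh-CFC replicate 2 or HDACi-CFC replicate 2 (adjusted p = 0.452 and 0.131).

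In the inflammatory and NF-kB list 11 of 22 tested genes rose (50%) and 1 fell, with a median of 0.67, or 0.42 with library totals (10 rose and 2 fell) and 0.22 per nucleus (4 rose and 2 fell). Another 15 of its 37 genes had too few UMIs to test, among them Il1b, Tnf, Ccl2 and Nfkbiz. Cd86, a costimulatory ligand, had 214 and 277 CPM with vehicle in CFC and 655 and 777 CPM with HDACi (1.53, SE 0.17). Irak2, a kinase downstream of Toll-like receptors, had 335 and 321 CPM and then 813 and 774 CPM (1.28, SE 0.15). The chemokine gene Ccl4 went from 0 and 8.02 CPM to 41.7 and 37.2 CPM (2.90, SE 0.64). The ubiquitin ligase gene Traf6 fell from 79.7 and 66.2 CPM to 29.2 and 23.9 CPM (-1.45, SE 0.40), a call lost without HDACi-CFC replicate 2 (adjusted p = 0.0714). Il1b had 0 and 5 UMIs with vehicle in CFC and 1 and 2 with HDACi. Tnf had 0 and 1 UMIs and then 1 and 18, so that its UMIs came almost wholly from HDACi-CFC replicate 2. Nfkbia, the inhibitor that NF-kB itself induces, had 54.2 and 52.1 CPM and then 45.9 and 87.8 CPM (0.40, adjusted p = 0.41).

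Genes of the disease-associated state showed 5 rises (33.3%) and 1 fall among 15 tested members, with a median of 0.30, or 0.06 with library totals (2 rose and 1 fell) and -0.14 per nucleus (1 rose and 2 fell). Cd9, a tetraspanin, had 484 and 455 CPM and then 980 and 788 CPM (0.91, SE 0.15). Ccl6, Fth1 and Lyz2 had log2 fold changes of 1.77, 0.80 and -0.93, all 3 resting on single libraries. Ccl6 lost the call without HDACi-CFC replicate 2 (adjusted p = 0.247), Fth1 without Veh-CFC replicate 1 or HDACi-CFC replicate 2 (adjusted p = 0.0516 and 0.216), and Lyz2 without Veh-CFC replicate 1 or HDACi-CFC replicate 1 (adjusted p = 0.15 and 0.185). Lyz2 was at 0.22 among microglia with 0 UMIs of the 9 excluded genes. Apoe, which marks that state and is also abundant in astrocytes, had 2040 and 1566 CPM with vehicle in CFC and 2036 and 1211 CPM with HDACi and did not pass. In the interferon list 1 of 9 tested genes rose and 1 fell (11.1% each, beside 17.4% and 14.7% of all genes). With library totals or per nucleus 0 rose and 2 fell. The receptor gene Ifnar2 rose by 0.85, a call lost without Veh-CFC replicate 1, Veh-CFC replicate 2 or HDACi-CFC replicate 1 (adjusted p = 0.0564, 0.12 and 0.078).

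Genes that export cholesterol and make lipid mediators rose with the inhibitor. Of 25 tested genes of the lysosome and lipid list 10 rose (40%) and 0 fell, with a median of 0.29. With library totals 10 rose and 1 fell (median 0.04), and per nucleus 4 rose and 1 fell (median -0.16). Abcg1, a cholesterol exporter, had 66.9 and 94.2 CPM with vehicle in CFC and 417 and 362 CPM with HDACi (2.22, SE 0.23, adjusted p = 5.8e-06). Pla2g4a, which frees arachidonic acid from membranes, had 239 and 182 CPM and then 559 and 644 CPM (1.54, SE 0.18). Tbxas1, thromboxane synthase, had 606 and 569 CPM and then 1293 and 1229 CPM (1.10, SE 0.13), and Alox5, arachidonate lipoxygenase, rose by 1.62 (SE 0.36). Abca1, another cholesterol exporter, rose along with Abcg1.

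In TGF-beta and CSF1 signalling 7 of 16 tested genes rose (43.8%) and 1 fell, with a median of 0.31, or 0.07 with library totals (5 rose and 1 fell) and -0.13 per nucleus (1 rose and 1 fell). Nrros, which anchors latent TGF-beta on microglia, had 274 and 289 CPM with vehicle in CFC and 709 and 655 CPM with HDACi (1.27, SE 0.16). Skil, a repressor of SMAD activity, rose from 194 and 247 CPM to 451 and 428 CPM (0.97, SE 0.18). The receptor-activated SMADs moved apart. Smad3 had 147 and 202 CPM and then 384 and 277 CPM (0.87), while Smad2 had 147 and 112 CPM and then 45.9 and 63.9 CPM (-1.17), and both lost the call without Veh-CFC replicate 1 (adjusted p = 0.0732 and 0.0791). Tgfbr1 did not pass, at 2069 and 2029 CPM against 2231 and 2147 CPM.

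Genes of the deacetylases that CI-994 inhibits, and of their complexes, did not share a direction. Of 23 tested genes of class I deacetylases and corepressor subunits 4 rose (17.4%) and 6 fell (26.1%), with a median of -0.33. The shares over all genes were 17.4% and 14.7%. With library totals 2 rose and 7 fell, with a median of -0.58, and per nucleus 1 rose and 8 fell (median -0.79). Hdac1 had 112 and 64.2 CPM with vehicle in CFC and 79.3 and 55.9 CPM with HDACi, Hdac2 35.1 and 34.1 CPM and then 16.7 and 18.6 CPM, and Hdac8 185 and 192 CPM and then 229 and 173 CPM. Hdac1, Hdac2 and Hdac8 did not pass (adjusted p = 0.452, 0.129 and 0.841), and Hdac3, with 14, 11, 3 and 9 UMIs in the CFC libraries, was not tested. Chd3, a remodeller of the NuRD complex, rose from 60.6 and 58.1 CPM to 163 and 152 CPM (1.40, SE 0.27). Sap130, a SIN3 complex subunit, fell from 89.2 and 82.2 CPM to 33.4 and 7.98 CPM (-2.21, SE 0.47). Sin3a and Gatad2a had log2 fold changes of -1.42 and -1.21, but lost the call without Veh-CFC replicate 1 or HDACi-CFC replicate 1 (Sin3a, adjusted p = 0.109 and 0.0758), or without Veh-CFC replicate 2 or HDACi-CFC replicate 1 (Gatad2a, adjusted p = 0.0827 and 0.0764). Among 17 tested genes of other deacetylases and acetyltransferases 3 rose (17.6%) and 5 fell (29.4%), and per nucleus 1 rose and 9 fell. Ncoa2, a coactivator of nuclear receptors, fell from 316 and 307 CPM to 154 and 122 CPM (-1.19, SE 0.21). Its relative Ncoa1 fell by 1.31 and the histone acetyltransferase Hat1 by 1.33 on the log2 scale. Ncoa1 lost the call without Veh-CFC replicate 2 (adjusted p = 0.0608), and Hat1 without Veh-CFC replicate 2 or HDACi-CFC replicate 1 (adjusted p = 0.234 and 0.109). The acetyltransferase gene Kat7 rose by 1.13.

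Rapid early genes, which cells switch on within minutes of a stimulus, were sparse in these nuclei. Of 24 listed only 9 had enough UMIs to test, of which 6 rose (66.7%, beside 17.4% of all genes) and 0 fell (median 0.89). With library totals 3 rose (median 0.64) and per nucleus 2 (median 0.44), and 0 fell under either. Since Fos, Egr1 and 13 others were not tested, the count covers the better detected members only. Btg2, an antiproliferative factor, had 115 and 130 CPM with vehicle in CFC and 263 and 279 CPM with HDACi (1.14, SE 0.21). Ier5 had 31.9 and 64.2 CPM and then 129 and 136 CPM (1.38, SE 0.32). Zfp36 (1.42) and Nr4a1 (1.89) rested on few UMIs. Zfp36 lost the call without Veh-CFC replicate 1, Veh-CFC replicate 2 or HDACi-CFC replicate 2 (adjusted p = 0.0679, 0.178 and 0.355), and Nr4a1 without Veh-CFC replicate 2, HDACi-CFC replicate 1 or HDACi-CFC replicate 2 (adjusted p = 0.493, 0.128 and 0.129). Jun had 63.7 and 58.1 CPM and then 70.9 and 55.9 CPM, and Fos had 0, 2, 0 and 0 UMIs in the 4 CFC libraries. Of 11 glucocorticoid response genes 2 rose (18.2%, near the 17.4% of all genes) and 0 fell, and with library totals or per nucleus 0 rose and 0 fell. The 2 were Mt1 (0.96), a call lost without Veh-CFC replicate 1 or HDACi-CFC replicate 2 (adjusted p = 0.211 and 0.189), and Sgk1 (0.73), lost without Veh-CFC replicate 1, Veh-CFC replicate 2 or HDACi-CFC replicate 2 (adjusted p = 0.0993, 0.142 and 0.0956). Fkbp5, a strong target of the glucocorticoid receptor, had 1402 and 1383 CPM and then 1519 and 1815 CPM (0.26, adjusted p = 0.0897). Of 8 clock genes 0 rose and only Clock fell (-0.87), that is 12.5% beside 14.7% of all genes. The call of Clock was lost without Veh-CFC replicate 1, Veh-CFC replicate 2 or HDACi-CFC replicate 2 (log2 fold changes -0.75, -0.99 and -0.62).

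**Figure D3:**
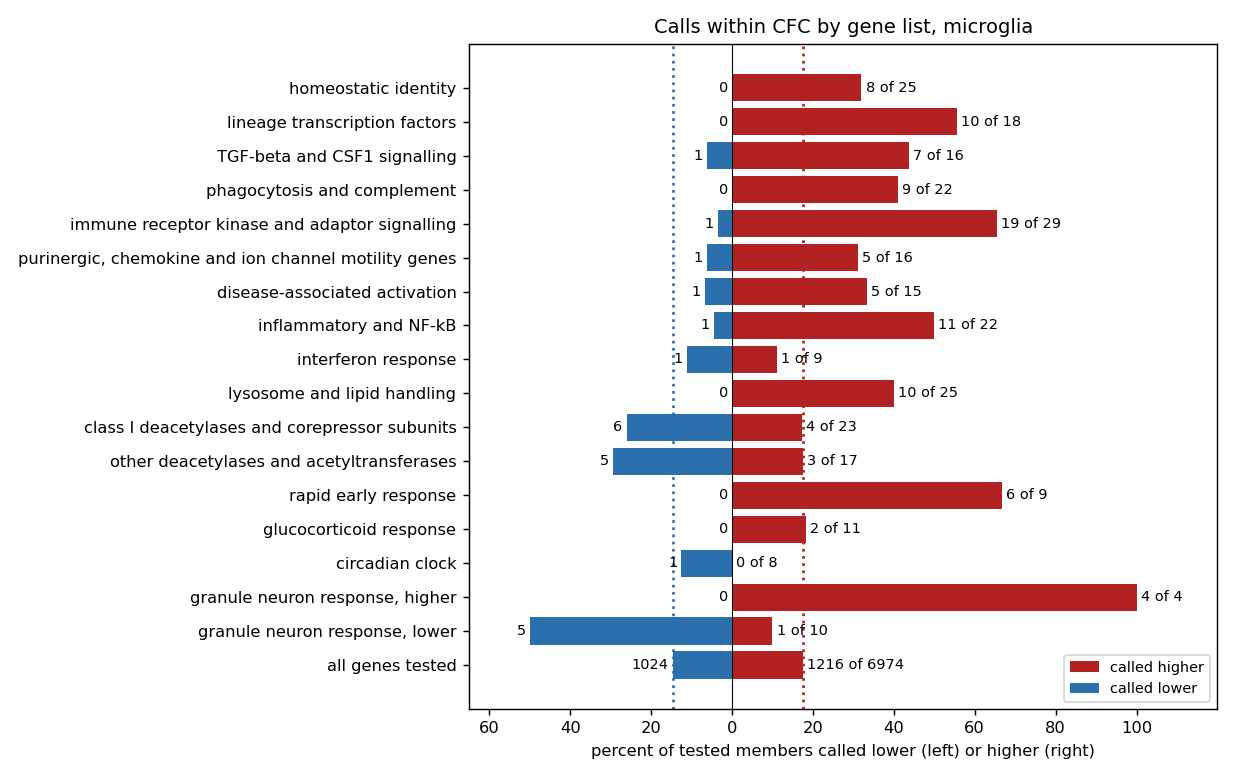
For each gene list, the percent of its tested members called higher (right, red) or lower (left, blue) in HDACi-CFC microglia, with the counts printed beside the bars and dotted lines at 17.4% and 14.7%, the shares among all genes tested. The kinase and adaptor list reaches 65.5% higher, and both deacetylase lists have a larger share lower than higher.

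Genes taken from the response of dentate granule neurons in the same libraries were followed in microglia. That choice rests on these animals, so the direction is not independent evidence. Of 10 genes that had risen in granule neurons 4 were tested in microglia. All 4 rose, beside 17.4% of all genes, led by Gpc4 and Fam49a. The rest of the 10 had too few UMIs to test. A gene low with vehicle, as Gpc4 was, could enter the test through the treated libraries, so this share is a description only. Fam49a went from 28.7 and 20.0 CPM to 104 and 74.5 CPM (1.87, SE 0.40). Arid5b, a DNA-binding cofactor of a demethylase, went from 159 and 128 CPM to 350 and 362 CPM (1.33, SE 0.20). Gpc4 had 6.37 and 4.01 CPM and then 37.5 and 34.6 CPM and lost the call without Veh-CFC replicate 2 or HDACi-CFC replicate 1 (adjusted p = 0.144 and 0.0769). Tbl1x (0.61) lost it without Veh-CFC replicate 1, Veh-CFC replicate 2 or HDACi-CFC replicate 2 (adjusted p = 0.136, 0.118 and 0.105). Of the 10 genes that had fallen there, 5 (50%) fell in microglia, beside 14.7% of all genes. Among the 5 were Rspry1 (-2.11), Tmem55a (-2.01) and Terf1 (-1.85). Gmcl1 (-1.43) lost the call without Veh-CFC replicate 1 or HDACi-CFC replicate 1 (adjusted p = 0.519 and 0.0748). Wnk1, a kinase that regulates ion transport and was named after its values were seen, went the other way. It rose in microglia from 1198 and 1107 CPM to 2161 and 2605 CPM (1.05, SE 0.12, adjusted p = 1.2e-05), and its difference from neurons was not tested.

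The rises were spread over many nuclei. With every nucleus thinned to 1000 UMIs, which left out 2 to 15 shallower microglia per library, Lyn was found in 74.2% and 76.1% of Veh-CFC microglia and 90.9% and 96.0% of HDACi-CFC microglia. Maf was found in 37.1% and 36.1% and then 69.1% and 66.4%, and Cd86 in 16.3% and 25.6% and then 38.9% and 42.5%. Without thinning Maf was found in 54.1% and 59.5% and then 75.8% and 79.1%. In oligodendrocytes thinned alike, Maf was found in 0.182% to 0.438% of nuclei per library. P2ry12 was found in 67.4% and 64.3% of Veh-CFC and 66.9% and 68.8% of HDACi-CFC microglia, with overlap. Jmjd1c was found in 58.4% and 54.6% and then 88.6% and 87.5% of microglia, and in 16.1% to 26.4% of oligodendrocytes.

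Macrophages of the brain borders share much of this RNA, and their markers did not move together. Their list of 10 genes summed to 1297 and 1192 CPM in Veh-CFC, 1273 and 1368 CPM in HDACi-CFC, and 857 and 727 CPM in the library labelled Veh-Context and its HDACi counterpart. Of its 5 tested genes 3 rose (Mrc1, Stab1 and Dab2) and 1, Cd163, fell, beside 17.4% and 14.7% of all genes. Stab1 was its most abundant gene in all 6 libraries, with 616 and 649 CPM with vehicle in CFC and 755 and 756 CPM with HDACi on the same plain scale (TMM-scaled log2 fold change 0.48, adjusted p = 0.0103, or 0.0873 and 0.0871 without Veh-CFC replicate 1 or 2). The scavenger receptor gene Cd163 fell from 66.9 and 62.2 CPM to 25.0 and 29.3 CPM (-1.21, adjusted p = 0.0296), a call lost whichever of the 4 libraries was left out (adjusted p = 0.0782 to 0.119). F13a1 had 229 and 200 CPM and then 146 and 141 CPM (-0.58, adjusted p = 0.0534), and 74 and 9 UMIs in the library labelled Veh-Context and its HDACi counterpart. Mrc1 rose by 0.73 within CFC, a call lost without Veh-CFC replicate 2 or HDACi-CFC replicate 2 (adjusted p = 0.508 and 0.188). Stab1, Cd163, F13a1, Mrc1 and Dab2 were named after their values were seen. Nuclei with at least 2 UMIs of the list made up 20.3% to 44.6% of members per library, and 0 to 2 of them per library lacked a homeostatic gene. Without such nuclei 798 genes rose and 655 fell among 5094 tested. Vascular markers summed to 63.1 and 66.3 CPM with vehicle in CFC and 159 and 168 CPM with HDACi, and Pecam1, the 1 member with enough UMIs to test, rose by 1.54, a call lost without Veh-CFC replicate 2 or HDACi-CFC replicate 1 (adjusted p = 0.0816 and 0.0611).

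Markers of some other cell types were higher in the treated CFC libraries as well. The astrocyte list summed to 679 and 643 CPM with vehicle in CFC and 811 and 1028 CPM with HDACi, and to 624 and 581 CPM in the library labelled Veh-Context and its HDACi counterpart. Of its 5 tested genes 2 rose and 0 fell, beside 17.4% and 14.7% of all genes. The glutamate transporter gene Slc1a2 rose by 1.69 and the bicarbonate transporter gene Slc4a4 by 1.56. Slc1a2 was at 0.75 (adjusted p = 0.32) among microglia with 0 UMIs of the 9 excluded genes, and Slc4a4 lost the call without Veh-CFC replicate 2 (adjusted p = 0.0652). The list of oligodendrocyte precursors summed to 41.0 and 50.3 CPM and then 88.2 and 74.9 CPM, and to 60.7 and 39.2 CPM in the Context pair. Its 1 tested gene, Ptprz1, rose by 1.16, a call lost without Veh-CFC replicate 1, Veh-CFC replicate 2 or HDACi-CFC replicate 1 (adjusted p = 0.121, 0.0996 and 0.215). The list of monocytes and neutrophils summed to 25.3 and 20.1 CPM and then 49.4 and 59.0 CPM, and to 27.8 and 70.6 CPM in the Context pair. The chemokine receptor gene Ccr2, its 1 tested gene, rose by 1.22, a call lost whichever of the 4 libraries was left out (adjusted p = 0.0637 to 0.457), and Retnlg and Ly6g had 0 UMIs in microglia of every library. The list of mature oligodendrocytes summed to 464 and 517 CPM and then 466 and 638 CPM, and 0 of its 5 tested genes passed, beside 32.1% of all genes. Without Scrublet doublets Slc4a4 and Ptprz1 also lost the call. Pecam1, Slc1a2, Slc4a4, Ptprz1 and Ccr2 were named after their values were seen. The lymphocyte list summed to 41.0 and 28.1 CPM and then 74.1 and 25.0 CPM, and to 45.5 and 26.2 CPM in the Context pair. Of its 10 genes 0 had enough UMIs to test, and Cd3d, Cd2 and Cd8a had 0 UMIs in microglia of every library. The part of these other cells in the results was not tested.

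The second comparison, HDACi-Context against the library labelled Veh-Context, has 1 library a group (395639 UMIs in microglia of the library labelled Veh-Context, 382292 in HDACi-Context) and therefore no test. Intervals given here are 95% counting intervals of 2 libraries. The direction within Context matched CFC for most called genes. Of 1606 genes called within CFC, outside the rule and with at least 30 UMIs over the Context pair, 1493 (93.0%) had a Context ratio on the same side of 0. Of the 983 that rose within CFC, 92.0% had a ratio above 0, of the 623 that fell, 94.5% had a ratio below 0, and of all 4941 tested genes with such depth, 57.3% had a ratio above 0. The 2 pairs share no library. The ratio is taken with the library labelled Veh-Context as vehicle.

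Jmjd1c was at 713 CPM in the library labelled Veh-Context and 2285 CPM in HDACi-Context, a log2 ratio of 1.68 (1.49 to 1.87). Lyn was at 1013 and 2746 CPM (1.44, 1.27 to 1.60) and Maf at 506 and 1385 CPM (1.45, 1.22 to 1.69). C5ar1 was at 61.5 and 337 CPM (2.45, 1.84 to 3.12) and Abcg1 at 79.7 and 340 CPM (2.09, 1.54 to 2.68). Siglech, a gene of the rule, was at 863 and 2067 CPM. The highest ratios among genes with at least 100 UMIs included Lrrc28 (3.03), Ier5 (2.69), Pkib (2.58) and Lst1 (2.51), and all 4 also rose within CFC. The lowest were R3hdm1 (-2.15), Kdm2a (-1.85), Tcf12 (-1.84), Gbf1 (-1.79) and Faf1 (-1.65), of which Kdm2a, Tcf12, Gbf1 and Faf1 fell within CFC and R3hdm1 did not pass (-0.44, adjusted p = 0.121).

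Several complement and homeostatic genes that did not pass within CFC had positive Context ratios. C1qa was at 1692 and 2709 CPM in the library labelled Veh-Context and its HDACi counterpart, a log2 ratio of 0.68 (0.54 to 0.82), C1qb at 1262 and 2073 CPM (0.72, 0.55 to 0.88) and C1qc at 1032 and 1565 CPM (0.60, 0.42 to 0.78). Trem2 was at 369 and 714 CPM (0.95, 0.66 to 1.25), Tmem119 at 198 and 366 CPM (0.88, 0.48 to 1.30), Cx3cr1 at 1186 and 1910 CPM (0.69, 0.52 to 0.86) and P2ry12 at 961 and 1527 CPM (0.67, 0.48 to 0.86). The 24 homeostatic genes with enough depth had a median ratio of 0.69, and 22 of them lay above 0, beside a median of 0.16 over all tested genes with that depth. The library labelled Veh-Context also had the lowest summed level of the selecting genes, 7487 CPM against 9270 CPM in HDACi-Context. Whether the drug effect differed between CFC and Context was not tested, since Context has no replicates.

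**Figure D4:**
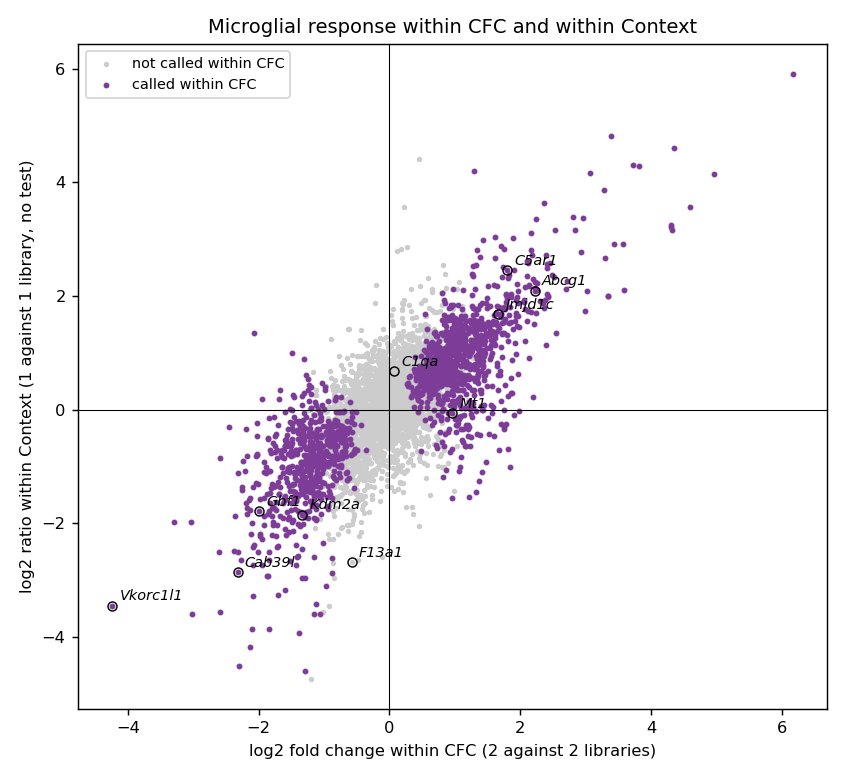
Each point is 1 gene with at least 30 UMIs over the Context pair, with its log2 fold change within CFC on the x axis and its log2 ratio within Context on the y axis, in purple where called within CFC. Of the called genes 93.0% lie at lower left or upper right, with Mt1 just below 0 on the Context axis.

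The last comparison set the response of microglia against that of the other glia in the same CFC libraries, where each pool gives both cell types. Nuclei of mature oligodendrocytes (3037 over all 6 libraries) and astrocytes (852) were chosen by rules on the same marker genes, and the difference of the drug effect was tested in edgeR with an interaction term and a block for library. Against oligodendrocytes the effect was higher in microglia for 573 of 10335 genes (5.54%) and lower for 274 (2.65%), with a median term of 0.12 over all genes. Against astrocytes it was higher for 392 of 9231 genes (4.25%) and lower for 91 (0.986%), with a median of 0.22. With library totals the medians were 0.04 and 0.05, and the counts 489 and 349, and 224 and 120. The balance against oligodendrocytes rested on the treated libraries, since 289 genes were higher and 400 lower (median -0.13) without HDACi-CFC replicate 1, and 206 and 259 (median -0.12) without HDACi-CFC replicate 2. Against astrocytes the median was -0.09 without HDACi-CFC replicate 2, with 123 higher and 87 lower. Leaving out Veh-CFC replicate 1 gave 284 and 145 against oligodendrocytes, and 149 and 29 against astrocytes. Leaving out Veh-CFC replicate 2 gave 217 and 101 against oligodendrocytes, and 0 against astrocytes, where 1026 genes still had an unadjusted p below 0.05 and DESeq2 on all 4 libraries called 10 and 5. Genes called in both cell types with opposite signs numbered 104 for oligodendrocytes, of which 46 rose in microglia, and 39 for astrocytes, of which 22 did.

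Tesk2 had the lowest term against oligodendrocytes. It fell in microglia as given above and rose in oligodendrocytes from 117 and 136 CPM to 192 and 219 CPM, a difference of -4.45 (SE 0.59, adjusted p = 3.4e-11). Cab39l, which activates the kinase LKB1 complex, fell in microglia from 150 and 158 CPM to 20.9 and 37.2 CPM and rose in oligodendrocytes from 266 and 282 CPM to 450 and 544 CPM (difference -2.99, SE 0.35). Ncoa2 fell in microglia and rose in oligodendrocytes from 319 and 311 CPM to 504 and 570 CPM (difference -1.76, SE 0.25), and in astrocytes it fell from 208 and 203 CPM to 63.0 and 117 CPM. Wdr76, Actn4 and Thap2 completed the lowest terms. Wdr76 and Actn4 rose in oligodendrocytes, and in microglia they lost the call without Veh-CFC replicate 2 (Wdr76, adjusted p = 0.0557) and HDACi-CFC replicate 2 (Actn4, adjusted p = 0.117).

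In the other direction Brd7, a bromodomain subunit of SWI/SNF, rose in microglia from 98.8 and 112 CPM to 380 and 295 CPM and fell in oligodendrocytes from 44.4 and 46.8 CPM to 33.4 and 25.7 CPM (difference 2.51, SE 0.33). Bcl7a, of the same complex, rose in microglia from 44.6 and 38.1 CPM to 159 and 181 CPM, and its difference from oligodendrocytes was 2.66 (SE 0.37). Nup210l rose in microglia from 79.7 and 54.1 CPM to 355 and 492 CPM and stayed between 31.5 and 39.2 CPM in oligodendrocytes (difference 2.89, SE 0.35). Ninj2 rose in both cell types, by 3.36 in microglia and 0.80 in oligodendrocytes. Hdgfl3 fell in oligodendrocytes and did not pass in microglia (adjusted p = 0.0824).

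Against astrocytes the purine synthesis gene Gart had the highest term. It rose in microglia from 35.1 and 66.2 CPM to 171 and 120 CPM and fell in astrocytes from 45.8 and 47.9 CPM to 19.9 and 6.68 CPM (difference 3.68, SE 0.56, adjusted p = 5.6e-05). Lyn, which did not pass in either other cell type, had a difference of 1.71 (SE 0.35) from astrocytes and 1.09 (SE 0.33) from oligodendrocytes. In oligodendrocytes it was sparse, found in 19 of 460 and 30 of 555 nuclei with vehicle in CFC. With HDACi it was found in 11 of 382 and 35 of 577, so a change there could be missed. Znrf3, a ubiquitin ligase of the Wnt pathway, fell in microglia from 82.9 and 76.2 CPM to 25.0 and 21.3 CPM and rose in astrocytes from 384 and 435 CPM to 865 and 843 CPM (difference -2.57, SE 0.44). Tom1l2 did the same, with a difference of -2.23. Loxl3 rose in microglia by 2.10. Dhx40, Unc79 and Kctd16 were higher in microglia by 2.90 to 3.22 in this comparison, and Ddhd1, Deptor and Tesk2 lower, by -2.61 to -2.37, but apart from Tesk2 each lost its call within microglia when single libraries were left out. Those were Veh-CFC replicate 1 and HDACi-CFC replicate 2 for Dhx40 (adjusted p = 0.257 and 0.509), Veh-CFC replicate 2 and HDACi-CFC replicate 1 for Unc79 (0.092 and 0.255) and Kctd16 (0.152 and 0.28), and Veh-CFC replicate 2 for Ddhd1 (0.228) and Deptor (0.194). Kctd16 also lost its call within microglia without Scrublet doublets. Kctd16 and Unc79 are also neuronal genes, and the neuronal list rose in the treated microglia as given above.

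Other genes responded in all 3 glial types. Chd3 rose by 1.40 in microglia, 1.498 in oligodendrocytes and 1.90 in astrocytes, and the differences of 0.12 (SE 0.38) and -0.24 (SE 0.41) did not pass, although with these errors sizable differences could be missed. Malat1 rose by 0.42, 0.44 and 0.60, and per nucleus it was at -0.04 in microglia. Neat1, the scaffold RNA of paraspeckles, rose by 1.28 in microglia, from 102 and 64.2 CPM to 184 and 205 CPM, by 1.56 in oligodendrocytes and by 2.33 in astrocytes. Its call in microglia was lost without Veh-CFC replicate 2 (adjusted p = 0.0652). Smad2 fell in all 3, at -1.17, -1.80 and -1.35.

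**Figure D5:**
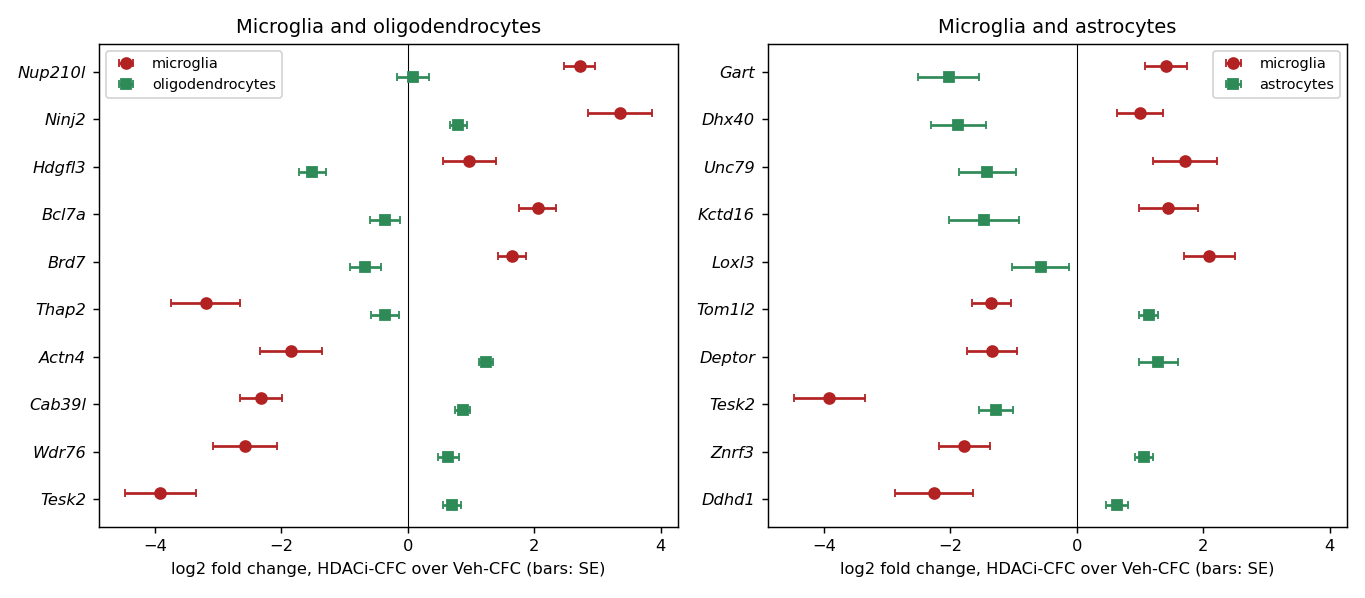
Log2 fold change, HDACi-CFC over Veh-CFC, of the 10 genes with the highest and lowest interaction terms for microglia (red circles) and oligodendrocytes or astrocytes (green squares), with bars of 1 SE. Cab39l lies at -2.32 in microglia and 0.87 in oligodendrocytes, and Gart at 1.41 in microglia and -2.03 in astrocytes.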

How the data were processed

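Single-nucleus 3' RNA libraries were analysed from the deposited matrices, which hold raw UMI counts per gene and barcode as whole numbers, per the file headers made with Cell Ranger 3.0.1 (CFC) and 3.0.2 (Context). Build mm10 and Seurat 4.0.3 are named in the submitters' processing notes, and whether intronic reads were counted is not given in the sources used here. The labels describe 4 libraries pooled for sequencing, and whether both Context libraries were made with them is not stated.

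Nuclei were chosen by the rule in the text, and their counts summed per library. The CFC fit used edgeR 4.0.16 (R 4.3.3) on the 4 CFC libraries with filterByExpr, TMM and a quasi-likelihood test (two-sided). CPM of single genes beside a test are TMM-scaled over the UMIs of tested genes, and those of Context are scaled on its own 2 libraries over all UMIs, so CFC and Context levels are on different scales. Marker list sums, levels set against other nuclei and Stab1 are plain CPM over all UMIs. Of 31053 gene IDs, 31011 matched GENCODE M21 (GRCm38). Doublets came from Scrublet (scanpy 1.11.5, expected rate 0.06). The fits were tested on simulated data. Alternatives were DESeq2 1.42.0, other scalings and filters, other member rules and leaving out each library.

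The members, the 17 gene lists and the tests were chosen with earlier results of these data known. Named genes are the 10 highest and 10 lowest log2 fold changes among called, named genes whose log2 CPM averaged 5 or more, with no overlap between groups, up to 4 called members per list, a set of standard genes, the 5 highest and 5 lowest interaction terms (with that level in both cell types) and the 5 highest and 5 lowest Context ratios. Rule genes are left out. Others are said to be named after their values were seen. A few genes that the rule takes are not reported here.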

Additional observations from a re-analysis of the deposited data

Results flagged for a closer look

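Of the 1606 genes called within CFC (edgeR) with at least 30 UMIs in Context, 113 had a Context ratio on the other side of 0. Among the genes named here whose CFC groups did not overlap, 7 did. These differences were not tested, since Context has 1 library a group. Kcnk6 rose within CFC by 0.75 and had a Context log2 ratio of -0.10. Mt1, a metallothionein, rose by 0.96 and had a ratio of -0.065. Dhx40 rose by 1.00 and had a ratio of -0.16. Mrc1, the mannose receptor of border macrophages, rose by 0.73 and had a ratio of -0.68. Gatad2a fell by 1.21 and had a ratio of 0.028. Kcnip4 and Grin2a, of the neuronal list, rose by 1.42 and 1.78 and had ratios of -1.10 and -0.25. These 2 kept the CFC call when any 1 library was left out and lost it in DESeq2 (adjusted p = 0.228 and 0.144). Grin2a also lost it without Scrublet doublets. Kcnip4 also lost it with all 6 libraries fitted together and among microglia with 0 UMIs of the 9 excluded genes. The other 5 genes lost it when single libraries were left out.

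The drug effect differed between cell types by the interaction test for 847 genes against oligodendrocytes and 483 genes against astrocytes. Without Veh-CFC replicate 2 these were 318 and 0.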

How the results depend on the processing

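Of 122 called genes named by rule or added, Dab2 not counted, 75 kept the call in every fit without 1 library that tested them. In all alternatives that tested them 59 kept it. Some genes, such as Plet1 and Ccl4, were not tested in each of these fits. Within CFC, library totals gave 793 genes higher and 1645 lower, and counts per nucleus 438 and 2019, since both move the typical gene below 0. DESeq2 called 597 (465 higher, 132 lower), nuclei with 0 UMIs of the excluded genes gave 1088 (568 and 520) and those without border macrophage UMIs 1453 (798 and 655), from fewer genes tested in the last 2. Leaving out 1 library gave 1073 to 1969 calls, 670 to 1167 higher and 403 to 802 lower. Against oligodendrocytes there were 330 higher genes with no low-count filter, 110 calls in DESeq2 (69 and 41), and 318 to 689 calls without 1 library, 206 to 289 higher and 101 to 400 lower, with more lower than higher without either HDACi-CFC library. Against astrocytes library totals gave 224 higher, no filter 301 (129 and 172), DESeq2 15 (10 and 5), and leaving out 1 library 0 to 344, with 0 to 272 higher and 0 to 87 lower. The share of microglia differed by -0.483 points with 0 excluded UMIs, and the groups did not overlap. The share of called genes with the same sign in Context was 90.3% with library totals, 90.5% per nucleus and 96.4% at 100 UMIs. For the other changes the cause was not tested.

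Replicate numbers were not shown to pair the pools, as the deviations of same-numbered libraries correlated at 0.0913 over 6974 genes. With the replicate block there were 2742 calls, 1473 higher and 1269 lower.

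Reversed log2 values were as follows, all in genes not called in CFC except Lyz2, Mertk and Malat1. With library totals Hdac8 was at -0.19, P2ry12 -0.0051, Tmem119 -0.079, Cx3cr1 -0.0081, Trem2 -0.14, C1qa -0.17, C1qc -0.24, Spi1 -0.15, Tgfbr1 -0.15 and Jun -0.21. Per nucleus Hdac8 was at -0.39, P2ry12 -0.21, Tmem119 -0.29, Cx3cr1 -0.21, Mertk -0.12, Trem2 -0.35, C1qa -0.37, C1qc -0.44, Spi1 -0.36, Tgfbr1 -0.36, Nfkbia -0.043, Jun -0.41, Fkbp5 -0.18 and Malat1 -0.035. With 0 excluded UMIs Lyz2 was at 0.22, Hdac8 -0.14, Tyrobp 0.30, C1qb 0.12, Apoe 0.50 and Spi1 -0.10. Over all 6 libraries Hdac8 was at -0.00060, Tyrobp 0.21 and C1qb 0.22. At 5 selecting UMIs C1qc was at -0.0090 and Apoe 0.12, with a homeostatic UMI Jun was at -0.0097, and without border macrophage UMIs Tyrobp was at 0.29, Apoe 0.41 and Spi1 -0.0080. Leaving out 1 library, Hdac1 ranged from -0.76 to 0.051, Hdac8 from -0.087 to 0.28, Tyrobp from -0.36 to 0.28, C1qb from -0.15 to 0.075, C1qc from -0.056 to 0.11, Apoe from -0.52 to 0.19, Spi1 from -0.067 to 0.35, Nfkbia from -0.20 to 0.77 and Jun from -0.070 to 0.23.

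With 2 libraries a group and 283546 to 497395 UMIs each, genes of few UMIs such as Il1b, Fos and Hdac3 could not be tested, and the median nucleus limits what 1 nucleus shows.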
